A study of Homo sapiens with 12 samples.

Results

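HepG2 cells in which both forms of β-catenin were targeted by a small interfering RNA (siRNA) were compared with HepG2 cells in which the truncated form alone was targeted. The comparison took the 3 arrays titled sißCat-both (si-both below) and the 3 titled sißCat-mut (si-mut), 6 of the 12 Affymetrix arrays of the study, chosen by their titles, and all 14884 named genes. HepG2 is an established human liver tumour cell line in which exon 3 of the β-catenin gene is deleted on 1 allele, so a truncated protein that escapes degradation is made beside the full-length protein. All groups carry this deletion and were sampled 120 h after transfection. The other 6 arrays are 3 of cells given a control siRNA (siCtrl) and 3 of cells given an siRNA designed against the full-length, wild-type form (sißCat-WT, si-WT below). Set against si-mut, si-both adds the targeting of the full-length form in cells whose truncated form is targeted too. The 2 groups also received different siRNA molecules, and the molecule and the forms it targets cannot be told apart. The labels call the samples triplicates and name no separate cultures, and p-values therefore rest on a spread among samples that may be technical only. The probe sets of the targeted gene were not analysed here, so the degree of knockdown of either form was not checked.

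β-catenin has 2 known jobs. At the cell membrane it links cadherins, the adhesion receptors of epithelial cells, to the actin cytoskeleton, and in the nucleus it acts with TCF and LEF factors to switch on the genes of the Wnt pathway. Exon 3 encodes the residues that mark the protein for destruction, so a form without it accumulates and keeps Wnt target genes on. In liver, Wnt signalling sets which hepatocytes make glutamine and which handle drugs and bile acids, and it is often activated in liver tumours.

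Values are log2 intensities, so a difference of 1 is a 2-fold change, and they compare arrays within a gene and not genes with each other. The median over all probe sets was 4.71 to 4.78 on the 12 arrays, and levels near it lie close to the floor of the array, where differences are compressed. Across genes, the correlation between arrays of 1 group was 0.994 to 0.997, and 0 pairs were identical. The second principal component, with 16.4% of the variance, placed the si-mut arrays at -20.3 to -19.5 and the si-both arrays at 11.9 to 18.4. The si-both arrays had the lower array weights, 0.635 to 0.707 against 0.902 to 1.19 for si-mut, so they varied more. The hepatocyte markers stayed high in both groups, with ALB (albumin) at a mean of 13.45 in si-mut and 13.53 in si-both. Of 9 measured, 0 were higher and 2 lower in si-both at an adjusted p under 0.05, against 10.6% and 11.6% of all genes. TTR (transthyretin) was 0.54 ± 0.07 lower (adjusted p = 8.41e-05, limma) and the apolipoprotein APOA2 0.32 ± 0.07 lower (adjusted p = 0.00346). The si-both mean of TTR, 12.61, was still above its siCtrl mean of 11.7.

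Many genes differed between the groups. Calls were made in limma where the p-value, adjusted by Benjamini-Hochberg over all genes, was under 0.05, and 3297 of 14884 genes (22.2%) were called. Of these, 1575 (10.6%) were higher in si-both and 1722 (11.6%) were lower. The typical difference was small, with a median absolute size of 0.43 on the log2 scale among the called genes, and 232 genes (1.56%) differed at least 2-fold, 102 of them higher and 130 lower. The median over all genes was -0.016. The 3 arrays of each group did not overlap in 4996 genes (33.6%), and 3193 genes (21.5%) were both called and without overlap. The share called followed the level: with genes divided by mean level into 4 equal groups, it was 5.13% in the lowest, 12.1% in the next, 31.3% in the third and 40% in the highest. The gene lists below are set against the share over all genes and were not matched for level. Protein-coding genes were called in 25.2% of 11916, long non-coding RNAs in 11.6% of 1398 and microRNA genes in 6.9% of 1072.

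The gene that fell most was IGFBP1, which encodes a liver-secreted binder of insulin-like growth factors whose transcription insulin represses. It read 11.22, 11.3 and 11.25 on the si-mut arrays and 7.4, 7.78 and 8.69 on the si-both arrays. All 3 si-both arrays therefore lay below all si-mut arrays, with a wider spread among them. The difference was -3.3 ± 0.24 (SE, n = 3 arrays per group), or 9.83-fold, with an adjusted p of 1.39e-06. In siCtrl the mean was 10.69, so si-both was also the lowest of the 4 groups. The other members of the list of gluconeogenic and insulin-repressed genes gave smaller values: FOXO1, a transcription factor restrained by insulin, was 0.38 lower (adjusted p = 0.0221, up to 0.101 over the alternative settings and not called without array 1 of si-both or array 3 of si-mut), PCK2, the mitochondrial form of the gluconeogenic enzyme, was 0.53 higher (0.0021), and PCK1, its cytosolic form, differed by -0.21 (0.273).

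VNN1, a pantetheinase known as a target of the lipid sensor PPARα, read 7.24, 7.55 and 8.2 in si-mut and 4.49, 4.7 and 5.08 in si-both, a difference of -2.91 ± 0.21 (adjusted p = 1.36e-06). The si-both values lay close to the array floor and to the siCtrl mean of 4.19, and si-mut was the highest of the 4 groups. TINAG, a basement membrane protein, also had its highest level in si-mut, with 6.42, 6.69 and 6.47 in si-mut, 4.41, 4.07 and 4.33 in si-both and a siCtrl mean of 4.65. It fell by 2.26 ± 0.13. HAL, the enzyme that starts histidine breakdown, fell by 1.88 ± 0.19 but stayed above the control: it read 9.81 to 10.3 in si-mut, 8 to 8.43 in si-both and 5.51 to 6.19 in siCtrl.

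EGR1, a transcription factor that growth signals through ERK, the last kinase of the RAS and MAP kinase chain, switch on within minutes, read 10.59, 10.01 and 10.09 in si-mut and 7.91, 7.41 and 7.34 in si-both. The groups did not overlap, and the difference was -2.68 ± 0.28 (6.41-fold, adjusted p = 1.7e-05). The siCtrl arrays lay between them, at 9.13, 8.25 and 8.2. A second probe set of the gene, at a lower level, differed by -0.87. The known route from ERK to this gene runs through CArG boxes, the letters that serum response factor binds. They are shown here because EGR1 is one of the ERK output genes described below. The 250 bases before the annotated start of EGR1 (RefSeq, GRCh38.p14, chr5:138465229-138465478, plus strand) hold 2 of them, in capitals.
EGR1: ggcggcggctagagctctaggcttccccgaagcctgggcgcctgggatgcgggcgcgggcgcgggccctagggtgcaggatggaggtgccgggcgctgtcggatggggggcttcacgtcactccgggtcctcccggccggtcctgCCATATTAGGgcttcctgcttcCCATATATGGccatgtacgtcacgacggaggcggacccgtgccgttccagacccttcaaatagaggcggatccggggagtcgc
CArG boxes on either strand occurred in 1.18% of the 10749 promoters of tested genes in the table, and in 1.14% of all 27305. Among genes called lower they occurred in 18 of 1362 (1.32%) and among genes called higher in 12 of 1280 (0.938%). Of the 10 ERK output promoters searched, only 1 held a CArG box, that of EGR1. A match is a description of letters and not of binding.

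The remaining genes of the 12 with the largest falls were MAB21L3 (-2.16), TMT1B, a thiol methyltransferase (-2.08), CD109, a cell-surface protein that binds TGF-β (-1.97), the membrane protein TMC7 (-1.9), ZG16B, a secreted lectin-like protein (-1.83), IER3, an ERK-induced survival factor (-1.81), and HAVCR1, a cell-surface receptor for dying cells (-1.81). Their adjusted p-values ran from 6.09e-07 for TMT1B to 7.69e-05 for MAB21L3, and the arrays of the groups did not overlap for any of these 7 genes, as the rule for naming them required. For CD109 a second probe set near the floor differed by -0.34. For IER3 all 11 probe sets were lower, by 0.86 to 1.88. Several of them gave the same means (7.35 in si-mut and 6.48 in si-both, for example), so they are not 11 separate readings.

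HAMP, which encodes hepcidin, the liver hormone that lowers blood iron, was among the genes that rose most. Its si-mut arrays read 9.61, 9.86 and 9.46 and its si-both arrays 12.09, 11.95 and 12.22. The difference was 2.44 ± 0.12 (5.44-fold, adjusted p = 5.04e-08), and the siCtrl mean of 10.34 lay between the groups. BMP signals through SMAD factors and interleukin-6 through STAT3 are the known inducers of this gene. The 250 bases before its start (RefSeq, GRCh38.p14, chr19:35282278-35282527, plus strand) are shown because HAMP was among the largest rises. The part of these signals in the rise was not tested. Capitals mark GGCGCC, the letters of the known BMP response element, and TTCTTGGAA, which fit the STAT letters TTCNNGGAA.
HAMP: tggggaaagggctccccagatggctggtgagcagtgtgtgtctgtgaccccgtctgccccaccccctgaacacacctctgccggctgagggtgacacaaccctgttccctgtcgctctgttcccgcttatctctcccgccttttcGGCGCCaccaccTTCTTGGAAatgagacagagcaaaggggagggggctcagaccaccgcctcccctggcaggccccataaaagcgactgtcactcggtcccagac
On either strand, GGCGCC occurred in 22.4% and TTCNNGGAA in 3.9% of the promoters of tested genes. GGCGCC occurred in 23.9% of genes called higher and 26.5% of genes called lower, and TTCNNGGAA in 4.3% and 3.3%. CTTTGAT, the core letters read by TCF and LEF factors, occurred in 1.69% of tested genes, in 1.41% of those called higher and in 1.47% of those called lower.

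Highest of all was AADAC, a hydrolase of the endoplasmic reticulum that deacetylates drugs and lipids. It read 5.34, 5.53 and 5.37 in si-mut and 7.99, 8.02 and 8.58 in si-both, a difference of 2.78 ± 0.14 (6.89-fold, adjusted p = 5.05e-08). The si-mut values lay not far above the array floor, with a siCtrl mean of 4.98, so the size of this difference is uncertain. GSTA2 and GSTA1, glutathione transferases that neutralise reactive compounds, rose by 2.61 ± 0.23 and 2.11 ± 0.17. GSTA2 read 9.89 to 10.27 in si-mut and 12.67 to 12.79 in si-both, against 7.47 to 7.58 in siCtrl. The 2 GSTA genes are close copies whose probes may share signal. CES1, a liver carboxylesterase, rose by 2.04 ± 0.15, and its second probe set by 1.32.

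KITLG, the ligand of the receptor tyrosine kinase KIT, varied little within groups. It read 5.98, 6.04 and 6.13 in si-mut and 8.14, 8.15 and 8.15 in si-both (2.1 ± 0.09, adjusted p = 2.76e-08). Several other genes rose from levels near the array floor, so the size of their difference is uncertain: the adhesion protein FLRT3 (from a mean of 3.42 to 5.94), the oxysterol-binding relative OSBPL6 (5.01 to 7.68), the metallothionein MT1B (4.16 to 6.7), the neutrophil attractant CXCL8 (4.3 to 6.59), the fatty acid elongase ELOVL3 (4.83 to 7.01) and the protease inhibitor SLPI (4.54 to 6.69). All of these were close to the floor in siCtrl as well, at means of 3.16 for FLRT3, 4.55 for OSBPL6, 3.56 for MT1B, 4 for CXCL8, 4.12 for ELOVL3 and 4.2 for SLPI.

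**Figure D1:**
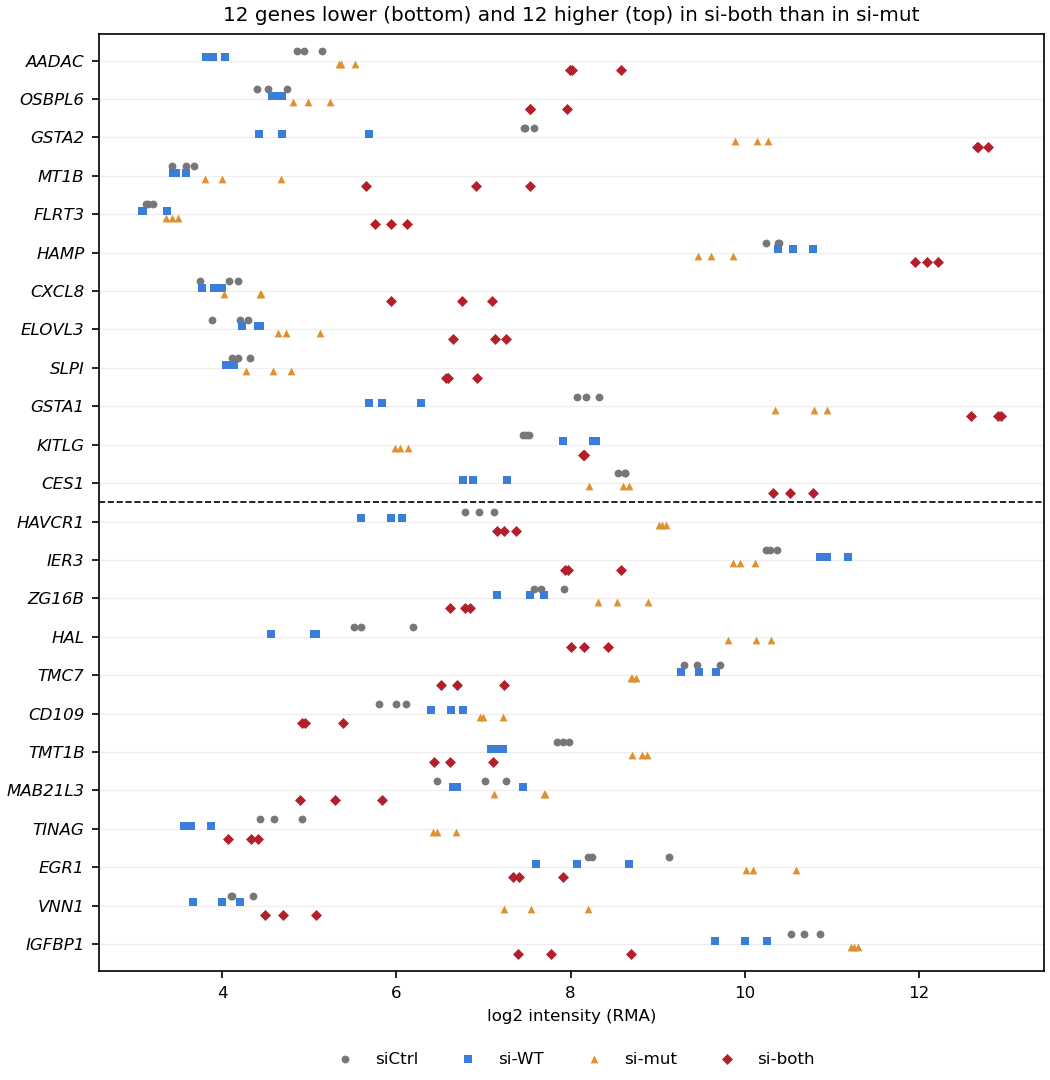
Log2 intensity (x axis) of the 12 genes with the largest rise (above the dashed line) and the 12 with the largest fall (below it) in si-both against si-mut, with 1 point per array for siCtrl, si-WT, si-mut and si-both. For IGFBP1 the si-both arrays lie at 7.4 to 8.69 and the other 9 arrays at 9.66 or above, and for GSTA2 the si-both arrays lie at 12.67 to 12.79, above all others.

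The share of known Wnt targets called between the knockdowns was close to that over all genes. Of the 8 named here, 7 lay below siCtrl on every array of both knockdowns. Of 21 measured members of the list, 4 were higher in si-both and 1 was lower (23.8% called, against 22.2% of all genes), with a median of 0.14. The counts depended on the settings: 5 higher and 5 lower with both first arrays left out, and 7 and 2 with the trended prior. AXIN2, the feedback inhibitor most often used to read the pathway, read 6.72, 5.83 and 5.89 in si-mut and 7.28, 6.04 and 6.44 in si-both, against a siCtrl mean of 9.61. The groups overlapped and the difference of 0.44 ± 0.26 did not pass the test (adjusted p = 0.275). The same held for the feedback inhibitor NKD1 (0.64 ± 0.32, adjusted p = 0.182), for NOTUM, the enzyme that inactivates Wnt ligands (-0.01 ± 0.23, adjusted p = 0.987), for the receptor-removing ligase ZNRF3 (0.19 ± 0.13, adjusted p = 0.349) and for the growth regulator MYC (-0.13 ± 0.11, adjusted p = 0.47). The siCtrl means of these 4 genes were 9.34 to 10.41 and their means in si-mut and si-both 6.63 to 7.81.

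LGR5, a stem cell receptor that strengthens Wnt signals, read 8.17, 6.57 and 6.02 in si-mut and 9.1, 7.79 and 7.79 in si-both, against 11.41 in siCtrl. Its difference of 1.31 ± 0.43 passed the test narrowly (adjusted p = 0.0446) although the arrays overlapped, and its adjusted p ranged from 5.1e-05 to 0.188 over the alternative settings. Array 1 was the highest of its group for LGR5, AXIN2, NKD1, NOTUM, ZNRF3 and MYC in si-mut and in si-both alike. With both first arrays left out, the adjusted p was 5.1e-05 for LGR5 (1.49) and 0.0531 for AXIN2 (0.38), NKD1 passed (0.68, adjusted p = 0.00196) and NOTUM passed as lower (-0.3, adjusted p = 0.0304). Without array 1 of si-both alone, LGR5 no longer passed, NOTUM was called lower at -0.4 (adjusted p = 0.012) and MYC at -0.28 (adjusted p = 0.0228), and the list gave 6 members lower in place of 1.

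RNF43, the partner ligase of ZNRF3, read 7.09, 7.07 and 7.08 in si-mut and 7.56, 7.35 and 7.38 in si-both, a small rise of 0.35 ± 0.07 (adjusted p = 0.00315) from the lowered level, with siCtrl at 9.08. DKK4, a secreted Wnt antagonist and listed target, did not follow the others. It read 7.64 on average in siCtrl, 9.61, 9.57 and 9.07 in si-mut and 11.34, 11.34 and 11.09 in si-both, so it rose by 1.84 ± 0.12 between the knockdowns (adjusted p = 6.98e-07). BAMBI, a decoy receptor for BMP and TGF-β, rose by 1.19 ± 0.15, and SOX9, a progenitor and bile duct transcription factor, fell by 0.67 ± 0.09.

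**Figure D2:**
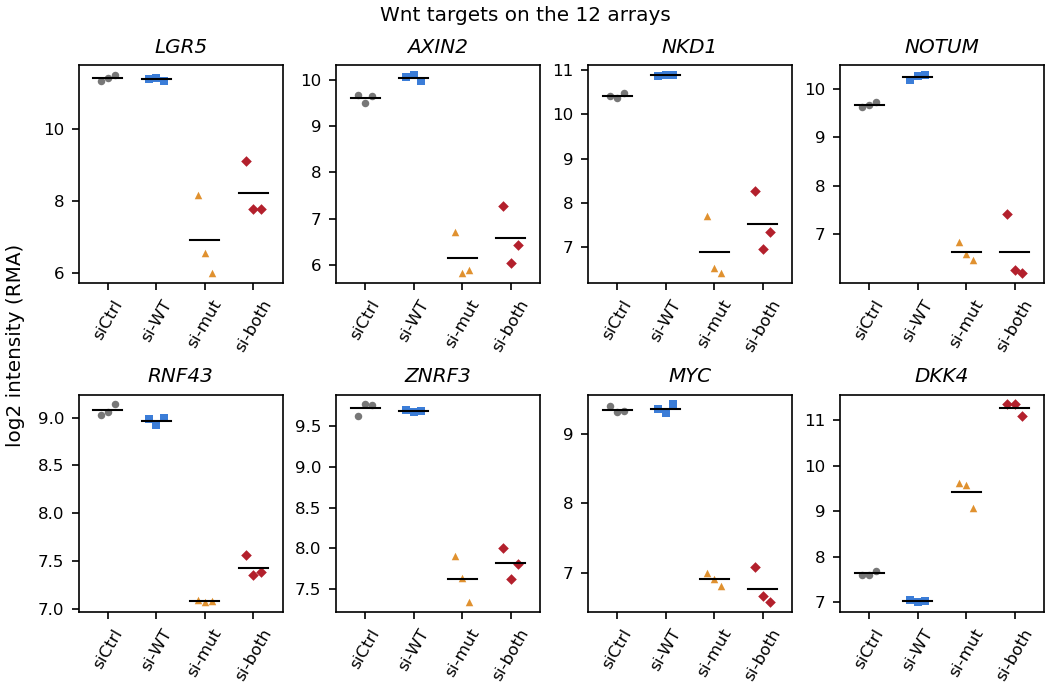
Log2 intensity (y axis, a scale of its own in each panel) of 8 Wnt targets on the 12 arrays, with 1 point per array and a line at the mean of each group. Except for DKK4, the si-mut and si-both points lie below every siCtrl and si-WT point, and LGR5, AXIN2, NKD1 and NOTUM of si-mut and si-both overlap.

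Among the ligands, receptors and other components of the Wnt pathway, 5 of 17 were higher and 2 were lower, against 10.6% and 11.6% of all genes. The largest rise was in the Frizzled receptors, to which Wnt ligands bind. FZD6 read 6.88, 6.77 and 6.69 in si-mut and 7.77, 7.9 and 7.85 in si-both (1.06 ± 0.08, adjusted p = 2.02e-06), FZD5 rose by 0.6 and FZD4 by 0.56. The co-receptor LRP6 rose by 0.48 while its relative LRP5 fell by 0.28. GSK3B, the kinase that phosphorylates β-catenin for destruction, rose by 0.29, and the scaffold AXIN1 differed by -0.22, at the edge of the threshold (adjusted p = 0.0479). The number of members lower was 0 to 3 over the alternative settings.

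ERK output genes, which rise when growth factor receptors activate the MAP kinase chain and include the brakes that restrain it, were examined as a list. Of 17 measured members 9 fell and the other 8 did not pass the test, against 11.6% of all genes called lower. The median was -0.35, against -0.016 for all genes. Besides EGR1 and IER3, DUSP6, the phosphatase that switches off ERK, read 9.37, 9.52 and 9.51 in si-mut and 7.55, 7.49 and 8.08 in si-both (-1.76 ± 0.14, adjusted p = 2.47e-06). SPRY4, an inhibitor of receptor tyrosine kinase signalling, fell by 1.63 ± 0.18 (8.62 to 8.82 in si-mut, 6.72 to 7.57 in si-both). The ETS transcription factors ETV4 and ETV5 fell by 1.57 ± 0.15 and 0.73 ± 0.08. For IER3, DUSP6, SPRY4, ETV4 and ETV5 the si-both arrays lay below the arrays of all 3 other groups.

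Falls were also found for DUSP5, a nuclear ERK phosphatase (0.94 ± 0.19), for the ephrin receptor EPHA2 (0.94 ± 0.11) and for SPRY2 (0.35 ± 0.1). The immediate early genes FOS (-0.33, adjusted p = 0.197), IER2 (-0.24, 0.0768) and JUN (0.25, 0.165) and the ERK target FOSL1 (-0.21, 0.436) did not pass. The count of members lower was 8 to 11 over the alternative settings.

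Of 15 genes of glycolysis and of the response to low oxygen 10 fell and the other 5 did not pass, with a median of -0.49, against 11.6% of all genes called lower. HK2, the hexokinase that tumour cells use for the first step of glycolysis, read 8.56, 8.54 and 8.62 in si-mut and 7.3, 6.81 and 7.44 in si-both, with siCtrl at 9.47 (-1.39 ± 0.15, adjusted p = 1.8e-05). The later enzymes PGAM1 (-0.86), GPI (-0.61), PGK1 (-0.49) and LDHA (-0.44) fell less. Of the genes known as targets of hypoxia-inducible factors, EPO, the hormone of red cell formation, fell by 0.96 ± 0.13, the angiogenic factor VEGFA by 0.9 ± 0.08 and the mitophagy receptor BNIP3L by 0.86 ± 0.08. EPO fell from a mean of 10.23 in si-mut to 9.26 in si-both, still above its siCtrl mean of 8.9. VEGFA read 8.91, 8.85 and 8.71 in si-mut and 7.81, 7.92 and 8.05 in si-both, and the siCtrl mean of 8.61 lay near si-mut. TPI1, BNIP3, EGLN3 and NDRG1 were lower by 0.19 to 0.4 without passing, and HK1 was near the floor.

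The targets of p53, the factor that halts division or triggers death after damage, rose in 10 of 16 measured cases and fell in 2 (median 0.52), against 10.6% of all genes called higher and 11.6% called lower. EDA2R, a receptor of the TNF family, read 6.38, 6.72 and 6.61 in si-mut and 7.64, 8.02 and 8.13 in si-both (1.36 ± 0.13, adjusted p = 8.49e-06). SESN2 and SESN1, the sestrins that restrain growth signalling through mTORC1, rose by 1.31 ± 0.12 and 1.27 ± 0.09. SESN2 read 8.4, 8.66 and 8.47 in si-mut and 9.54, 9.96 and 9.95 in si-both, and both sestrins were higher in si-both than on any other array. SPATA18, a mitochondrial quality factor, rose by 0.86, and the death genes BAX and PMAIP1 by 0.5 and 0.57. The members that fell were the stress cytokine GDF15 (by 0.72 ± 0.1) and the kinase PLK3 (by 0.37 ± 0.11). PMAIP1 and PLK2 lay near the floor in si-mut.

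The TGF-β and BMP list had 8 measured members, of which 4 rose and the other 4 did not pass (median 0.61), against 10.6% of all genes called higher. The 4 that rose are feedback genes of these pathways. SMAD7, the inhibitor of TGF-β receptors, read 6.23, 6.65 and 6.8 in si-mut and 7.6, 7.66 and 8.09 in si-both (1.22 ± 0.18, adjusted p = 0.000278). SMAD6, which restrains BMP receptors, read 5.2, 5.08 and 5.37 in si-mut and 6.02, 6.03 and 6.22 in si-both (0.87 ± 0.1), the latter near its siCtrl mean of 6.24. SKIL, a repressor of SMAD complexes, rose by 1.09 ± 0.12, and BAMBI is given above. Follistatin (FST) and the ligand BMP4 differed by -0.08 and 0.14 without passing.

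**Figure D3:**
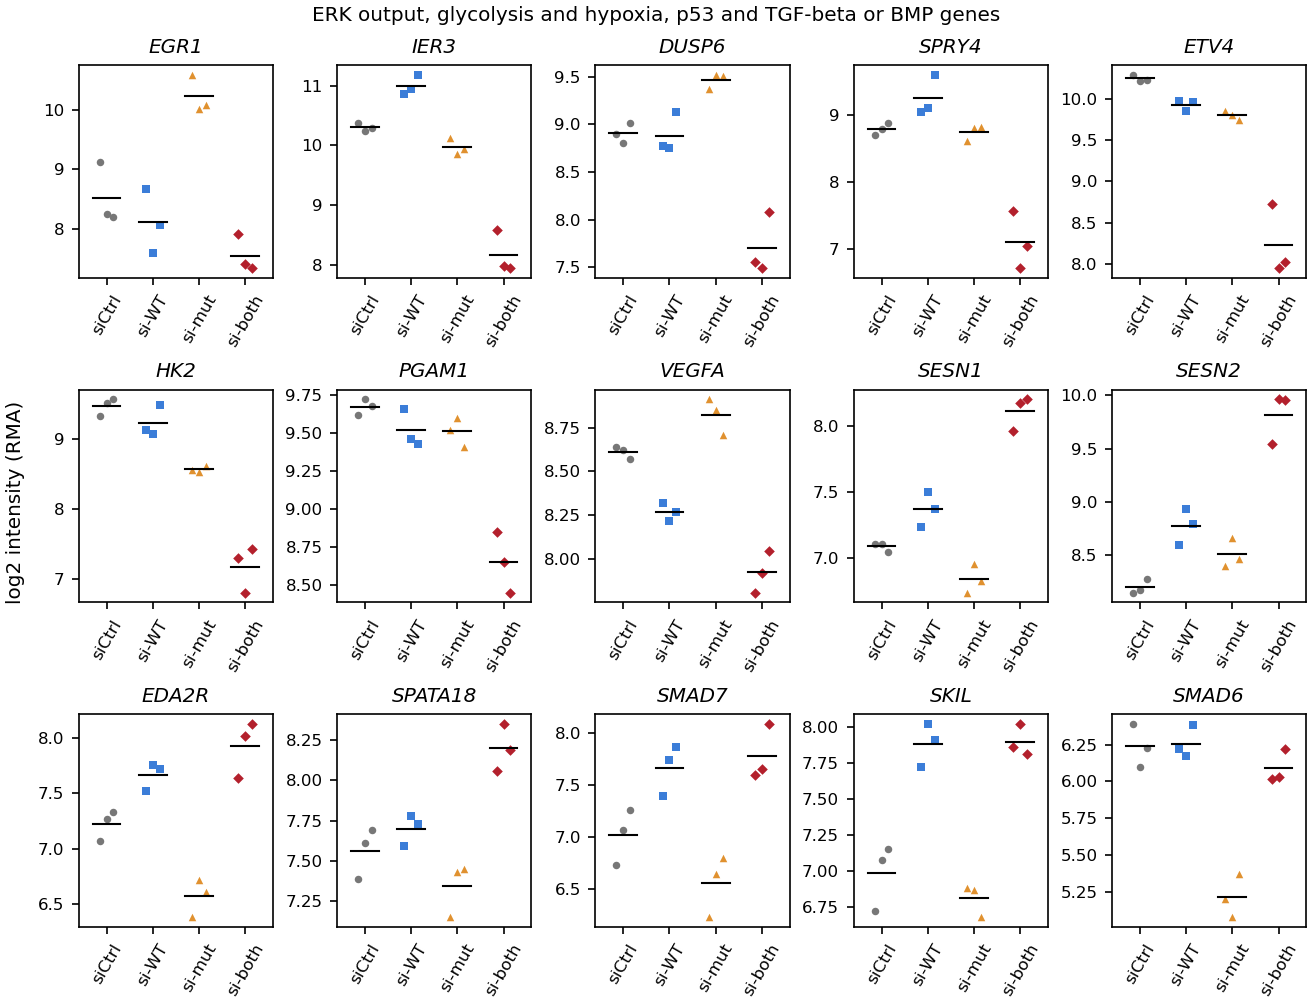
Log2 intensity (y axis, a scale of its own in each panel) of ERK output genes (EGR1, IER3, DUSP6, SPRY4, ETV4), glycolysis and hypoxia genes (HK2, PGAM1, VEGFA), p53 targets (SESN1, SESN2, EDA2R, SPATA18) and TGF-β or BMP feedback genes (SMAD7, SKIL, SMAD6), with 1 point per array and a line at each group mean. In the ERK, glycolysis and hypoxia panels the si-both mean is the lowest of the 4 groups, and in the p53 panels it is the highest.

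Genes of the unfolded protein response, which expand the folding capacity of the endoplasmic reticulum, fell in 5 of 9 members, rose in 1 and did not pass in 3 (median -0.34). For this list and the ATF4 list below, the shares over all genes were 11.6% lower and 10.6% higher. The chaperone HYOU1 read 9.64, 9.7 and 9.77 in si-mut and 8.74, 8.47 and 8.66 in si-both (-1.08 ± 0.09, adjusted p = 2.47e-06), and a second probe set differed by -0.69. SDF2L1, CRELD2, MANF and CALR fell by 0.88, 0.57, 0.45 and 0.34. The exception was CREB3L3, a liver factor held in the membrane of that compartment, which rose by 0.68 ± 0.07. In the list of ATF4 targets and the amino acid response 5 of 19 rose and 2 fell. VLDLR, the receptor for triglyceride-rich particles, read 6.21 to 6.34 in si-mut and 7.76 to 8.42 in si-both (1.78 ± 0.14), and asparagine synthetase (ASNS) rose by 0.62.

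Secreted plasma proteins, the main products of hepatocytes, moved in both directions: 6 of 35 were higher and 10 lower, with a median close to 0. Of all genes 10.6% were called higher and 11.6% lower, also to be set beside the acute phase list below. A1BG, a plasma glycoprotein, fell by 1.72 ± 0.17 (10.56 to 10.81 in si-mut, 8.7 to 9.39 in si-both), and complement factor B (CFB) by 0.91. FETUB, a protease inhibitor, rose by 1.33 ± 0.11 (10.32 to 10.75 in si-mut, 11.85 to 11.95 in si-both), and the haem carrier hemopexin (HPX) rose by 0.98. The clotting proteins split: F11, HABP2 and KNG1 rose by 0.59, 0.84 and 0.89, and F2 (prothrombin), F7 and PLG (plasminogen) fell by 0.44, 0.4 and 0.71. F9 rose by 0.99 from the floor, with a call lost when both first arrays were left out (adjusted p = 0.0531). ALB, APOB, transferrin (TF) and the fibrinogen chains FGA, FGB and FGG differed by at most 0.16 and did not pass. In the list of acute phase and innate defence genes 5 of 14 rose and 1, the interleukin-6 receptor IL6R, fell by 0.55. HAMP and CXCL8 led the rises, followed by the orosomucoids ORM1 (0.78) and ORM2 (0.77), close copies whose probes may share signal, and LBP (0.71), whose arrays overlapped. SOCS3 and SAA1, genes that interleukin-6 induces, differed by -0.15 and 0.05 without passing.

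Enzymes that handle bile acids and drugs were called in 7 of 9 cases, 4 higher and 3 lower (median 0.33), against 22.2% of all genes. The 4 were AADAC, CES1, the pyrimidine-degrading DPYD (1.22 ± 0.13) and the alcohol dehydrogenase ADH6 (1 ± 0.14). The 3 were SLC51B and SLC51A, the 2 chains of the transporter that exports bile acids from the cell, and the monooxygenase FMO5. SLC51B read 10.06, 10.08 and 9.64 in si-mut and 8.77, 8.2 and 8.52 in si-both (-1.43 ± 0.14), and SLC51A fell by 1.14 ± 0.12. The siCtrl mean of SLC51B was 7.4, below both groups.

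Of the genes of amino acid breakdown and the urea cycle, 5 of 16 rose and 3 fell, against 10.6% and 11.6% of all genes. OTC, the urea cycle enzyme that makes citrulline, read 6.33, 6.14 and 6.34 in si-mut and 8.08, 7.82 and 8.54 in si-both (1.88 ± 0.19, adjusted p = 1.32e-05). ASS1, the next enzyme of the cycle, rose by 0.67 and ASL, which follows it, fell by 0.58. BHMT, which recycles homocysteine to methionine, rose by 1.73 ± 0.15 and GNMT, which disposes of excess methyl groups, by 0.58. HAL and the hydroxyproline oxidase PRODH2 (-0.98) were the largest falls.

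Of 19 genes of fatty acid and triglyceride synthesis 8 fell and 2 rose (median -0.22), against 11.6% and 10.6% of all genes. These shares also apply to the cholesterol synthesis and fatty acid oxidation lists below. ATP citrate lyase (ACLY), which supplies acetyl-CoA for lipids, read 12.42, 12.42 and 12.32 in si-mut and 11.74, 11.43 and 11.34 in si-both (-0.88 ± 0.09, adjusted p = 1.48e-05). The lipid droplet protein CIDEC fell by 0.83, the acetate-activating ACSS2 and the elongase ELOVL6 by 0.61 each and fatty acid synthase (FASN) by 0.45. SREBF1, the master regulator of these enzymes, fell by 0.63 ± 0.17, with an adjusted p of 0.017 that ranged up to 0.0816 over the alternative settings. ACACB and DGAT2 rose by 0.44 and 0.41. Leaving out array 2 or array 3 of si-both reduced the 8 falls to 5. Of 16 cholesterol synthesis genes 6 fell and the other 10 did not pass (median -0.18), led by farnesyl diphosphate synthase (FDPS, -0.78 ± 0.11). Against siCtrl the median of this list was 0.6 in si-mut and 0.35 in si-both. Of 10 fatty acid oxidation genes 4 rose and 1, VNN1, fell. The rises were in the acyl-CoA synthetase ACSL1 (0.73), ETFDH (0.66), the gatekeeper of mitochondrial fat entry CPT1A (0.36) and ACAA2 (0.33), and PPARA, which encodes the factor that drives them, rose by 0.5 ± 0.1.

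Of 15 members of the NRF2 and glutathione list 2 rose and 5 fell, and the list did not follow GSTA1 and GSTA2. For this list and the others of this paragraph, 10.6% of all genes were called higher and 11.6% lower. Glutathione reductase (GSR) fell by 0.58, the pentose phosphate enzymes TALDO1 and TKT by 0.61 and 0.4, MGST1 by 0.49 and GSTM3 by 0.39, and the NRF2 targets SRXN1 and OSGIN1 differed by 0.02 and 0.08 without passing. Among the hepatocyte transcription factors 3 of 10 rose (GATA6 by 0.56, PPARA, and ONECUT1 by 0.35) and 3 fell (FOXA1 by 0.39, ESRRA by 0.37 and FOXA3 by 0.34); the call of ESRRA was lost with both first arrays left out (adjusted p = 0.074). Of 8 metallothioneins, the small metal-binding proteins, MT1B and MT1H rose, both from the floor, and the other 6 differed by 0.01 to 0.83 without passing; these genes are close copies whose probes may share signal.

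Of 22 mitosis genes 8 fell and the other 14 did not pass (median -0.25), against 11.6% of all genes called lower. PRC1, which bundles the microtubules of the dividing cell, read 8.57, 8.5 and 8.47 in si-mut and 7.96, 7.6 and 7.54 in si-both (-0.81 ± 0.1, adjusted p = 4.84e-05), and the kinase CDK1 and the topoisomerase TOP2A fell by 0.46 each. Of 23 DNA replication genes 7 fell, 2 rose and 14 did not pass (median -0.27), against 11.6% of all genes called lower and 10.6% higher. MCM3, a subunit of the replicative helicase, read 10.03, 9.99 and 9.91 in si-mut and 9.49, 8.78 and 8.84 in si-both (-0.94 ± 0.14), and the ribonucleotide reductase subunit RRM2 fell by 0.74. Array 1 of si-both was the highest of its group for each of these 5 genes. Without it 13 mitosis and 16 replication genes were lower, while without array 3 of si-both 4 replication genes were, and with only the 6 arrays in the fit the numbers were 5 and 4. The cyclin CCNE1 and thymidylate synthase (TYMS) rose by 0.42 and 0.26.

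Of 14 targets of YAP and TEAD, the factors that answer to cell shape and contact, 6 fell and 3 rose. Here and for the junction list below, the shares over all genes were 11.6% lower and 10.6% higher. AXL, a receptor tyrosine kinase, read 6.96, 7.31 and 7.36 in si-mut and 5.79, 5.93 and 5.74 in si-both (-1.39 ± 0.14), CCN2, a matricellular growth factor, fell by 1.23 ± 0.11 and CRIM1 by 1.03 ± 0.09. THBS1, an adhesive glycoprotein, rose by 1.12 ± 0.1, and ANKRD1 did not differ beyond its spread (0 ± 0.16, adjusted p = 0.994). In the list of cadherins, catenins, desmosomes and tight junctions, the structures in which β-catenin has its second job, 6 of 22 fell and 2 rose. ESAM, a tight junction adhesion molecule, read 7.08, 7.52 and 7.44 in si-mut and 5.94, 5.76 and 5.72 in si-both (-1.54 ± 0.18, adjusted p = 4.64e-05). The other falls were of 0.24 to 0.47, in NECTIN2, PKP4, PKP3, VCL and DSG2, and the rises were in MARVELD2 (0.62) and DSC2 (0.41). JUP, the relative of β-catenin that can take its place at cadherins, read 10.04 and 10.07 on average and did not pass (0.03 ± 0.08, adjusted p = 0.823).

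Actin and keratin genes fell in 8 of 25 cases and rose in 2 (median -0.15), with 5 falls without array 2 of si-mut. Over all genes 11.6% were called lower and 10.6% higher, which also applies to the progenitor and matrix lists below. VIL1, the microvillus protein, fell by 0.76 ± 0.07 and the epithelial keratins KRT18 and KRT8 by 0.61 and 0.59. SNAI2, a repressor of epithelial genes, rose by 1.19 ± 0.13 (8.82 to 9.12 in si-mut, 9.9 to 10.39 in si-both), while its relatives SNAI1, TWIST1, ZEB2 and TWIST2 did not pass and ZEB1 fell by 0.37, a call lost without array 1 of si-mut. Among the 14 progenitor and fetal markers SOX9, DLK1 (by 0.59), LIN28B (by 0.46) and IGF2BP1 (by 0.33) fell and SOX4 and CD24 rose (by 0.58 and 0.55, the call of CD24 being lost without array 2 of si-both or array 3 of si-mut), and GPC3, the tumour antigen of liver cancer, differed by 0.15 without passing. Of the 5 measured matrix genes osteopontin (SPP1) and perlecan (HSPG2) fell, by 0.61 and 0.58.

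The remaining lists can be read against the 22.2% of all genes called. Cytosolic ribosomal proteins were called in 3 of 29 cases (10.3%), respiratory chain genes in 2 of 10, ribosome biogenesis genes in 6 of 21 (3 in each direction) and lysosome genes in 7 of 15 (3 higher, 4 lower, all by at most 0.45). Over the alternative settings the lysosome genes gave 1 to 4 higher and 1 to 4 lower, with 2 higher and 1 lower both without array 2 of si-mut and with only the groups compared, and the ribosome biogenesis genes gave 0 to 4 higher and 3 to 5 lower, with 0 higher without array 3 of si-mut. Of 24 interferon-induced genes 5 were higher and 4 lower, with 2 lower when only the groups compared were fitted and 3 higher when dim genes were left out. The antiviral membrane proteins IFITM2 and IFITM1 fell by 1.49 ± 0.13 and 0.89 ± 0.14, while the RNA sensors IFIH1 and RIGI, which detect double-stranded RNA, rose by 0.48 and 0.45 and IFIT1 rose by 0.9 near the floor. ISG15 and MX2 differed by -0.11 and -0.22 without passing.

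**Figure D4:**
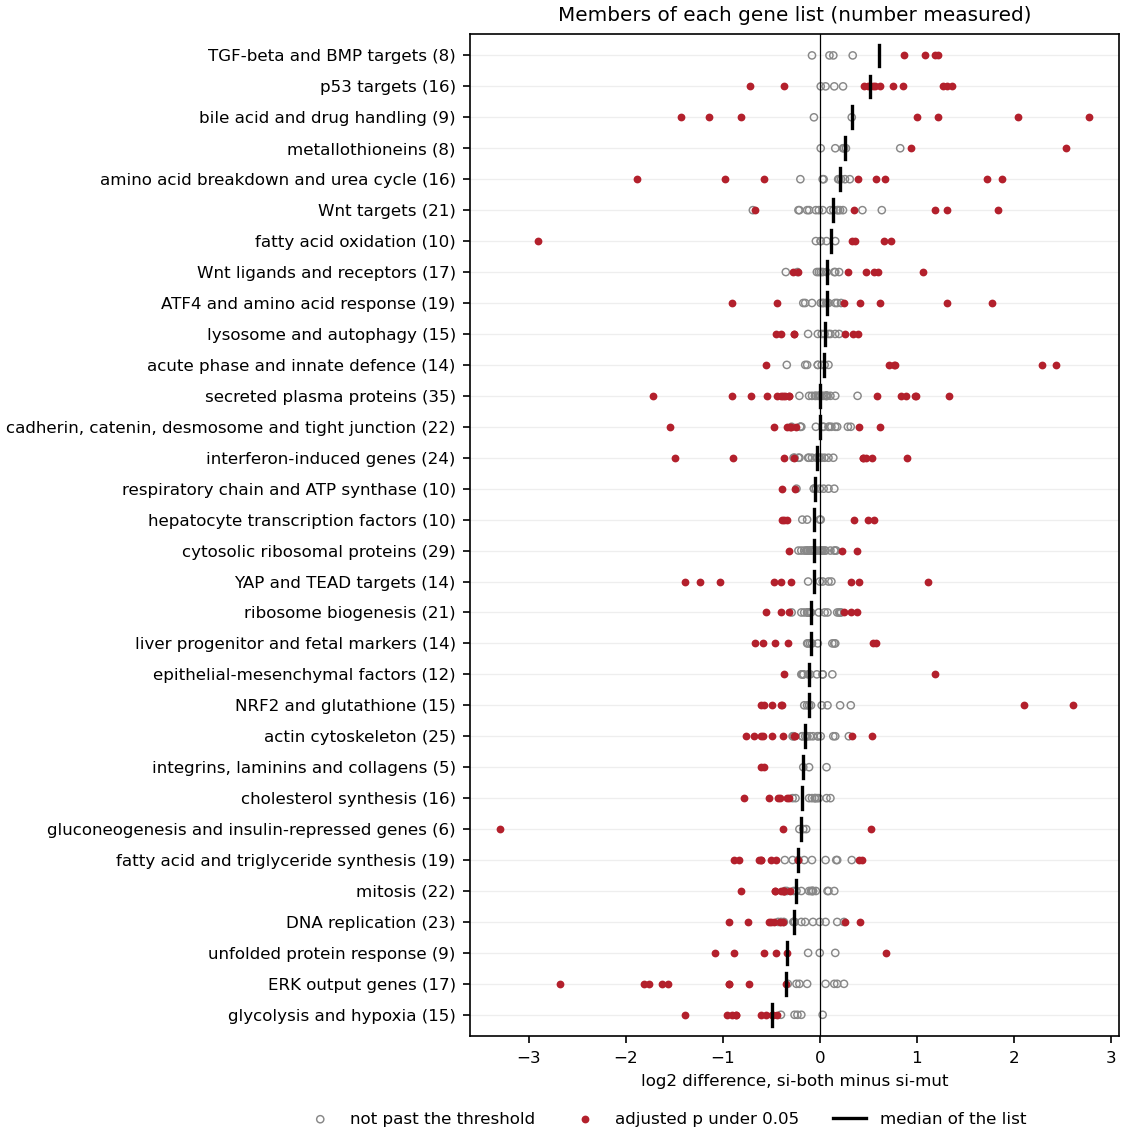
Log2 difference of si-both minus si-mut (x axis) for each measured member of 32 gene lists, ordered by the median of the list (black bar), with called genes filled and the number of measured members in brackets. TGF-β and BMP targets (median 0.61) and p53 targets (0.52) lie highest, and ERK output genes (-0.35) and glycolysis and hypoxia genes (-0.49) lowest.

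Markers of other cell types were read the same way, and their part in the differences above was not tested. Over all genes 22.2% were called, with 5.13% in the lowest level group and 12.1% in the next. Of the leukocyte markers 60% were called and of the cholangiocyte markers 33.3%. Of 4 measured fibroblast and 7 endothelial markers 0 passed the test in limma (1 and 0 at an unadjusted p under 0.05), and the mean levels of these lists lay near the array floor in si-mut and si-both, at 4.31 to 4.53 and at 4.06 to 4.28. Of 5 leukocyte markers lysozyme (LYZ) fell by 0.74 (12.29 to 12.36 in si-mut, 11.47 to 11.84 in si-both), and CD14 and CD2 rose by 0.53 and 0.45, with adjusted p-values of up to 0.0522 and 0.0582 over the alternative settings (CD2 was not called without array 2 or 3 of si-both or array 3 of si-mut); the mean of the list was 7.53 to 7.69 in si-mut and 7.62 to 7.71 in si-both. Of 6 cholangiocyte markers SOX9 and SPP1 fell, and the mean of the list was 8.44 to 8.57 in si-mut and 8.2 to 8.24 in si-both.

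The study also targeted the full-length form alone. Its targeting can therefore be described with the truncated form present (si-WT against siCtrl) and with it targeted (si-both against si-mut). The siRNA molecules differ between the groups and the knockdown was not checked, so the 2 steps need not be equal. These comparisons share no array. In the first, 1513 genes (10.2%) were called. Of the genes called in either comparison, 689 were called in both, which is 20.9% of the calls of si-both against si-mut and 45.5% of those of si-WT against siCtrl. Of these, 387 had the same sign (176 higher and 211 lower in both) and 302 the opposite sign (134 higher in si-both over si-mut and lower after si-WT, 168 the reverse). Across all 14884 genes the differences of the 2 comparisons had a Pearson r of 0.0434 and a Spearman rho of 0.0529, given as a description, since genes are not independent replicates.

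FLRT2, an adhesion protein of the FLRT family, rose in both settings: it read 5.6 to 6.07 in siCtrl and 7.4 to 7.81 in si-WT, then 5.6 to 6.11 in si-mut and 7.3 to 7.64 in si-both (1.77 ± 0.16 and 1.59 ± 0.16). BAMBI (1.23 and 1.19), THBS1 (1.18 and 1.12), the MAP kinase phosphatase DUSP10 (1.07 and 1.28) and the long non-coding RNA UCA1 (1.59 and 1.21) also rose in both, and HAVCR1 fell in both (by 1.09 and 1.81). FZD6 (0.83 and 1.06), FZD4 (0.65 and 0.56) and FZD5 (0.48 and 0.6) rose in both as well, as did SKIL (0.9 and 1.09). Among p53 targets 10 of 16 rose and 1 fell after si-WT, with a median of 0.35, against 10.2% of all genes called in either direction.

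GSTA2 and GSTA1 made opposite steps. GSTA2 read 7.47 to 7.58 in siCtrl and 4.42 to 5.69 in si-WT, a fall, and rose between si-mut and si-both as given above (-2.57 ± 0.23 and 2.61 ± 0.23). CES1 (-1.63 and 2.04), OTC (-1.44 and 1.88) and the long non-coding RNA SNAP25-AS1 (-1.57 and 1.86) did likewise. ESAM (1.63 and -1.54) and AXL (1.87 and -1.39) did the reverse. Of the ERK output genes, 5 of 17 rose after si-WT, where 10.2% of all genes were called in either direction. Among the 5 were DUSP5 (by 1.37) and IER3 (by 0.69), both of which fell in si-both against si-mut. Their departures from additivity, defined next, were -2.31 (adjusted p = 7.87e-05, limma) and -2.51 (adjusted p = 5.74e-06).

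The difference between the 2 steps was tested for each gene as a departure from additivity, in which the step of si-WT from siCtrl is subtracted from the step of si-both from si-mut. It was called for 2439 genes (16.4%), 1131 positive (7.6%) and 1308 negative (8.79%). Unequal knockdown and the siRNA molecules cannot be told apart from such a departure. The largest positive departures were those of GSTA2 (5.19 ± 0.32, adjusted p = 7.18e-07), GSTA1 (4.38 ± 0.24), AADAC (3.85 ± 0.19), CES1 (3.67 ± 0.21), SNAP25-AS1 (3.43 ± 0.21) and OTC (3.31). The largest negative ones were those of AXL (-3.26) and ESAM (-3.17), followed by VNN1, PAEP, CD109 and IGFBP1. VNN1 lay near the floor in siCtrl and si-WT (means 4.19 and 3.95), where a fall could hardly show. In si-WT, AADAC (3.91), OTC (3.98), SNAP25-AS1 (4.83) and GSTA2 (4.93) lay near it too. The size of these departures is therefore uncertain. FLRT2 (-0.18 ± 0.22, adjusted p = 0.68), BAMBI (-0.05), THBS1 (-0.06), FZD6 (0.23) and SKIL (0.18) did not pass this test.

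**Figure D5:**
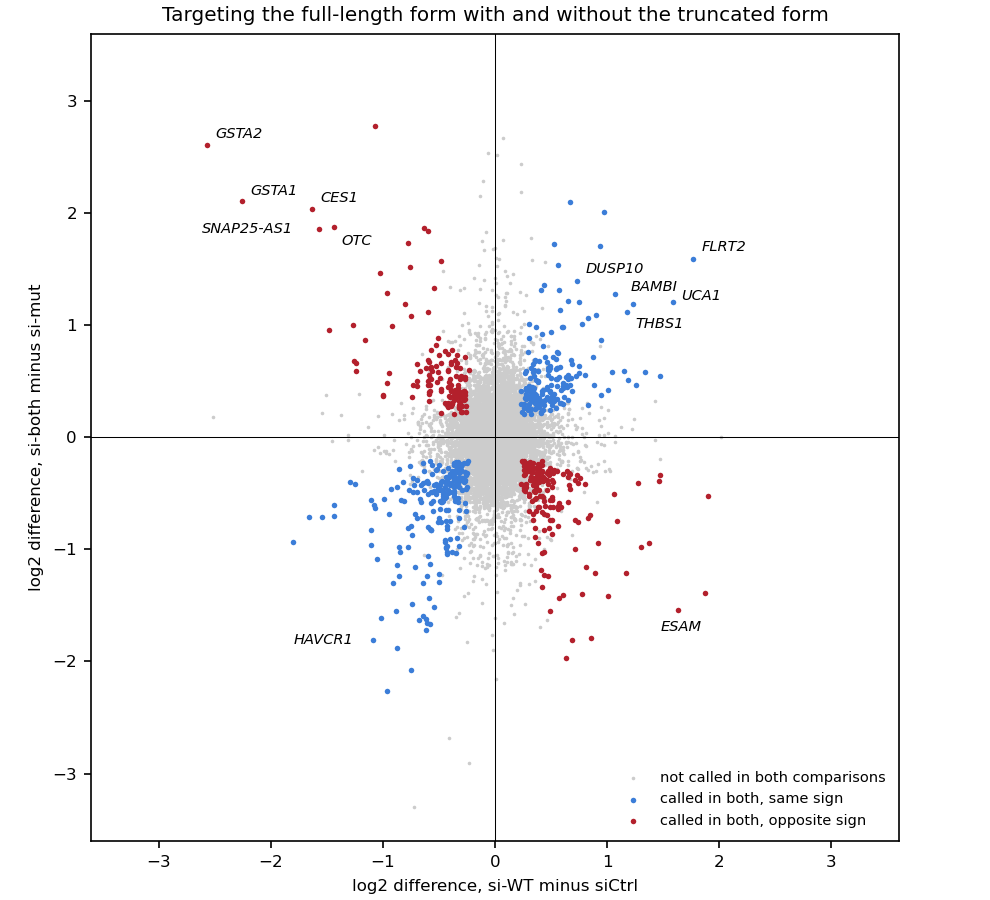
Log2 difference of si-both minus si-mut (y axis) against that of si-WT minus siCtrl (x axis), with 1 point for each of 14884 genes. Blue points are the 387 genes called in both comparisons with the same sign and red points the 302 with opposite signs; the labelled genes are the 6 of each kind whose smaller difference is largest.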

How the data were processed

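RNA of HepG2 cells, 3 samples for each of 4 siRNA groups, was labelled with biotin and hybridised to Affymetrix arrays. The authors deposited a table of log2 intensities for 53617 probe sets. The submitters' processing notes name RMA and Affymetrix Expression Console 1.1. RMA equalises the arrays' distributions, so a shift shared by most genes is removed, and it compresses changes near the floor. The log2 scale was read from the range of the values, genes were not centred, and raw intensities were not used here. Depth does not apply to arrays, where the number of arrays limits precision.

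Of the probe sets, 16098 had 1 gene symbol in the platform annotation, 0 had several and 37519 were not listed. All 16098 identifiers were found in the RefSeq gene table, with 0 symbols changed. Of the resulting 14884 genes, 779 had several probe sets and were represented by the one of highest mean over the 12 arrays. Dim genes were kept.

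A linear model with a mean for each of the 4 groups was fitted to all 12 arrays (limma 3.58.1 under R 4.3.3, lmFit, eBayes, 8 residual degrees of freedom). The p-values are two-sided, adjusted over all genes by Benjamini-Hochberg with a threshold of 0.05, and errors are standard errors of the fit. The members, the 34 gene lists and the 5 marker lists were chosen with earlier results of these data known; 2 lists, histones and proteasome, had 0 measured members. Lists are described by counts and medians without a set test. Named genes were the 12 highest and 12 lowest called differences without overlap (uncharacterised and small RNA symbols left out), up to 4 called members of lists with at least 3 called and up to 2 of others by size, the 6 largest with the same and with opposite sign after si-WT, the 6 highest and lowest departures from additivity, and 8 Wnt targets. Other list members are named where a count is described and were chosen after their values were seen. Motif letters were searched on both strands in the 250 bases before annotated starts (RefSeq, GRCh38.p14).

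In simulated data for si-both against si-mut on 14884 genes the fit recovered 65.7% of 67 genes simulated with a log2 change of 0.5, 97% of 67 with a change of 1 and 100% of 66 with a change of 2. Of its 181 calls 6 were false. Replicate numbers 1 to 3 recur in the titles of all groups, and whether they pair arrays was checked. Alternatives were repeated quantile normalization, median centring, leaving out dim genes, the mean of probe sets, trended and robust priors, only the groups compared, a replicate block, array weights, leaving out both first arrays, and leaving out each array in turn. Plots were made in Python 3.11.15 (matplotlib 3.10.9).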

Additional observations from a re-analysis of the deposited data

Results flagged for a closer look

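For 2439 genes the difference of si-both from si-mut differed from that of si-WT from siCtrl, by the interaction term in limma. Of the named genes, the departure was 5.19 for GSTA2, 4.38 for GSTA1, 3.85 for AADAC, 3.67 for CES1, 3.43 for SNAP25-AS1, 3.31 for OTC and 2.7 for MIXL1, a homeobox factor. MIXL1 fell by 2.52 after si-WT and differed by 0.18 between si-both and si-mut (adjusted p = 0.515). The departure was -3.26 for AXL, -3.17 for ESAM, -2.67 for VNN1, -2.65 for PAEP, a secreted glycoprotein, -2.6 for CD109 and -2.58 for IGFBP1. The floor limits given above for VNN1, AADAC, OTC, SNAP25-AS1 and GSTA2 apply here too. PAEP read 5.71, 5.79 and 6.33 in si-mut and 4.17, 4.5 and 3.79 in si-both, close to the array floor.

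Among the 37519 probe sets without a gene name, which the comparisons above do not use, 2547 (6.79%) were called between si-both and si-mut, 1319 higher and 1228 lower in si-both, and 364 of them differed at least 2-fold. The median level over all 37519 was 4.32.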

How the results depend on the processing

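The number of genes called between si-both and si-mut ranged from 2429 (only the groups compared) to 3538 (trended prior) over 22 alternatives, against 3297, and 0 genes called under an alternative and here had the other sign. Leaving out 1 array in turn gave 1193 to 1535 genes higher, 1343 to 1856 lower, 1912 to 2589 departing from additivity and a correlation between the 2 comparisons of 0.0213 to 0.0551. Of 137 called named genes, 118 kept their call and direction under all alternatives and 19 lost the call under at least 1, with at most 11 lost under 1 alternative. The 19 were LGR5, RPL38, GAR1, NOP16, EBP, SREBF1, E2F1, UQCRC1, FOXO1, TFEB, RPS16, CD2, CD24, IFIT3, CTSL, ZEB1, CD14, ESRRA and F9. NOTUM, which was not called, moved from -0.01 to -0.4 without array 1 of si-both and turned to 0.18 without array 2 of si-both, to 0.2 without array 3 of si-both and to 0.1 without array 1 of si-mut; the cause was not tested. By the check used the replicate numbers did not pair all arrays: same-numbered arrays of si-both and si-mut had correlated deviations of 0.117, 0.00764 and 0.108, not all above 0.1. Arrays 1 and 3 of si-both correlated best with the same-numbered arrays of si-mut, and array 2 of si-both with array 3 of si-mut (0.0243). Same-numbered arrays of si-WT and siCtrl gave 0.121, 0.00366 and 0.189. The main fit did not use the replicate numbers. With the replicate block 3523 genes were called, 3227 of them also without it, and no named gene lost its call. The Wnt target list then again gave 4 members higher and 1 lower. With only the groups compared 5 mitosis, 4 replication and 5 actin genes were lower.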
